A study of Mus musculus with 6 samples.

Results

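Medullary thymic epithelial cells (mTEC) show developing T cells proteins that are otherwise made in peripheral tissues, a property known as promiscuous gene expression. Described here are 8 genes tied to it, taken by name from a table of 52636 genes. They comprised Aire and Fezf2, the DNA-binding regulator Prdm1, and Hipk2, Chd4, Sirt1, Dnmt3l and Jmjd6, most of them known as partners or modifiers of Aire. The libraries came from mTEC, tuft-like or non-tuft-like, of C57BL/6 mice, which the study's methods give as 6 weeks old, with 3 libraries of each population. Per the sample labels, cells of both populations were UEA+ and MHCIIlo and lacked CD80, Sca1 and CD63. Tuft-like cells were CD117+ CD66a+, and non-tuft-like cells were negative for these 2 proteins. The labels do not say whether the libraries came from separate mice, so p-values measure the spread between these libraries only. Whether the thymi of several mice were pooled is likewise not given.

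Aire is a transcriptional regulator that acts in mature mTEC and releases paused RNA polymerase at many tissue-restricted genes. Fezf2, a zinc finger transcription factor better known from the developing forebrain, drives another set of such genes. Most Aire-expressing cells are MHCII high and CD80 high, a gate that neither population here passed, and mTEC can lose Aire as they go on to mimic peripheral cell types such as tuft cells.

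The regions before the RefSeq transcription starts of Aire, Fezf2 and its relative Fezf1 are shown first, because Aire and Fezf2 fell in tuft-like mTEC while Fezf1 rose, as described below. The sequences are from RefSeq (GRCm38.p6), run 5′ to 3′ on the strand of the gene, and cover only the bases outside annotated exons. They are chr10:78043611-78043860 for Aire, chr14:12345960-12346115 for Fezf2 and chr6:23248363-23248514 for Fezf1, all on the minus strand. The RefSeq starts of Fezf2 and Fezf1 lie inside the GENCODE genes whose coordinates are given below, and the stretch printed for Fezf2 lies within that gene, between its annotated exons. Capitals mark the letters TATAAA or CCAAT, or a match to the NF-κB consensus, on either strand.
Aire: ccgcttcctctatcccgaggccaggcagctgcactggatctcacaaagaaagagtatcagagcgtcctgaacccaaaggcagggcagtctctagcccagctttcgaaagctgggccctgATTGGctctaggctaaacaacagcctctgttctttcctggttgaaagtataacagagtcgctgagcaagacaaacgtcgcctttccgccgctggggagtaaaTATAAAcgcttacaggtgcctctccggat
Fezf2: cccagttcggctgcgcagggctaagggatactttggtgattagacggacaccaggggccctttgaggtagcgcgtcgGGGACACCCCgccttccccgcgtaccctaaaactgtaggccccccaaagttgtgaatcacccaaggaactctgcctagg
Fezf1: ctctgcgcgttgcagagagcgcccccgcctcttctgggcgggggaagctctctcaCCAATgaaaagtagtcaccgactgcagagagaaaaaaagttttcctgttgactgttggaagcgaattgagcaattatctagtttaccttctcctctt
In the Aire sequence TATAAA lay 29 to 24 bases before the start, and CCAAT was found on the opposite strand. In the Fezf1 sequence CCAAT lay on the strand of the gene. It was also found on the opposite strand 87 to 83 and 12 to 8 bases before the start, in the part not printed. The stretches printed for Fezf2 (156 bases) and Fezf1 (152 bases) are shorter than the windows of the shares that follow. Among 32851 RefSeq windows of the 250 bases before a start, 12.4% held TATAAA, 33.8% held CCAAT and 7.25% held the NF-κB consensus, which the marked stretch of Fezf2 matched on either strand. The octamer ATGCAAAT, the kind of site that POU factors bind, was in 1.60% of all windows and in none of these 3. Such matches describe the letters and do not show that a factor binds.

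Levels are given as CPM (counts scaled to a common library size) after TMM normalization. The test was edgeR's quasi-likelihood test over 32496 genes, at a false discovery rate (FDR) of 0.05, and a negative log2 fold change stands for a lower level in the tuft-like population. The libraries held 20097617 to 48369825 reads on genes. Reads that the counting step assigned to no annotated feature made up 19.7% (tuft-like replicate 3) to 61.6% (tuft-like replicate 1) of all reads. The labels of the populations were checked against 8 tuft cell genes. All 8 rose in the tuft-like population, with a median of 4.76 on the log2 scale, and Dclk1 averaged 1584 CPM there against 28.5 CPM. Ceacam1, which encodes CD66a, rose by 4.12 (FDR 0.000886). Kit, which encodes CD117, ranged from 300.9 to 451.4 CPM in the tuft-like and from 141.1 to 184.9 CPM in the non-tuft-like libraries, without overlap, but did not pass the test (FDR 0.0678). Of the epithelial genes, Epcam was counted in all libraries (229.5 to 1041 CPM), with its lowest levels in replicate 1 of both populations (229.5 and 248.0 CPM). Krt14 fell by 3.49 on the log2 scale in the tuft-like population. Krt5 fell by 3.02 without passing the test (edgeR FDR 0.0985). Krt8 went the other way, with a log2 fold change of 0.67 that did not pass either (edgeR FDR 0.968). In bulk libraries, fewer cells that express a gene and less RNA per cell cannot be told apart, and this holds for every difference below.

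Of the 8 regulators, all of which passed the filter on low counts, Aire, Fezf2 and Prdm1 fell in tuft-like mTEC, and the other 5 did not pass the test. The test called 2.11% of all tested genes, and 0.951% as lower. In 4 of the 8, Sirt1 included, every tuft-like library lay below every non-tuft-like library, which was so in 8.85% of all tested genes. None of the 8 was higher without overlap (7.18% of all tested genes, and 16.0% in either direction). The median log2 fold change of the 8 was -1.26, against 0.02 over all tested genes. For a single gene, an exact permutation test of 3 libraries against 3 cannot give a two-sided p under 0.10. The counts under other settings, given with the genes below, stand against their own shares of all tested genes. These were 2.41% with RLE factors, 3.22% with library size only, 10.2% with DESeq2, 2.78% with limma voom, 2.36% without a filter on low counts, 3.76% with at least 1 CPM in 3 libraries, 2.27% with the replicate block and 3.97% after subtraction of background. With 1 library left out the share was 1.42%, 1.03% or 1.50% without non-tuft-like replicate 1, 2 or 3, and 2.19%, 1.05% or 2.45% without tuft-like replicate 1, 2 or 3.

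**Figure D1:**
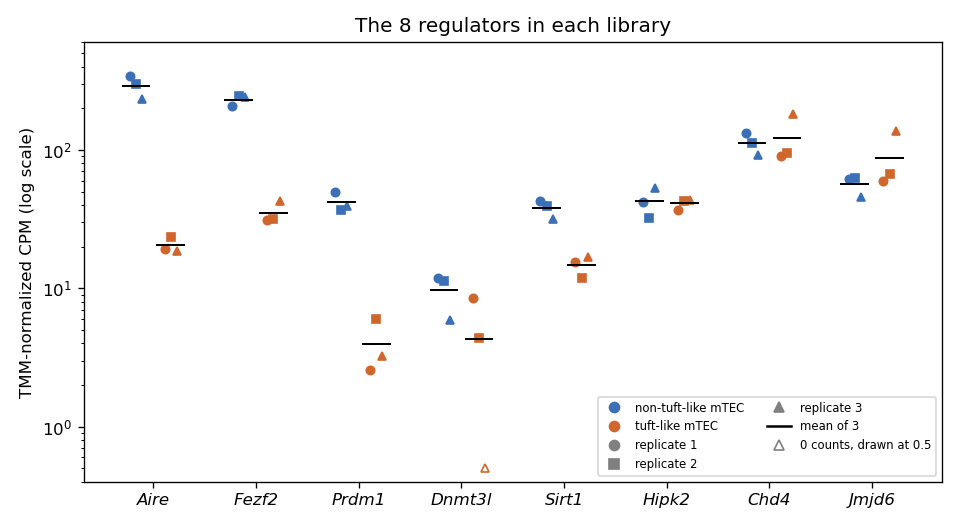
TMM-normalized CPM (log axis) of the 8 regulators in each of the 6 libraries, with a line at the mean of the 3 libraries of a population. Aire, Fezf2, Prdm1 and Sirt1 show no overlap between the populations, and Dnmt3l had 0 counts in tuft-like replicate 3.

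Aire (ENSMUSG00000000731, chromosome 10 of mm10, 78030022 to 78043610, minus strand) had 341.2, 299.2 and 235.4 CPM in the libraries of non-tuft-like mTEC, in the order of their replicate numbers, as below. In those of tuft-like mTEC it had 19.3, 23.4 and 18.8 CPM, from 468, 802 and 679 reads. The populations were far apart, with the tuft-like mean at 7.03% of the non-tuft-like mean. The log2 fold change was -3.83 (95% interval -4.50 to -3.16, edgeR FDR 0.000334). Aire was thus still counted in all 3 tuft-like libraries. Per kb of exon its reads there were 1.84 to 3.94 times a background level, taken as the 99th percentile over 1134 olfactory receptor genes, against 22.7 to 51.4 times in non-tuft-like mTEC.

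Fezf2 (ENSMUSG00000021743, chromosome 14, 12342094 to 12348189, minus strand) had 208.1, 244.6 and 241.1 CPM in the non-tuft-like and 31.0, 31.4 and 43.0 CPM in the tuft-like libraries. The tuft-like mean was 15.2% of the non-tuft-like mean, and the populations did not overlap. The log2 fold change was -2.72 (95% interval -3.35 to -2.09, edgeR FDR 0.000886). Levels of different genes were compared per kb of exon, with the exons of all annotated transcripts merged. This length was 3825 bases from 16 transcripts for Aire and 3047 bases from 3 for Fezf2, and such comparisons depend on it. On this scale Aire and Fezf2 were equally abundant in non-tuft-like mTEC within their spread, at 76.3 ± 13.9 and 75.9 ± 6.61 CPM per kb (mean ± SD of 3 libraries, as in all such values below). By CPM they averaged 292.0 and 231.3 there. In tuft-like mTEC Fezf2 stood at 11.5 ± 2.23 and Aire at 5.36 ± 0.668 CPM per kb, and their libraries did not overlap. The ratio of Aire to Fezf2 per kb ranged from 0.778 to 1.31 in non-tuft-like and from 0.347 to 0.594 in tuft-like mTEC. These ranges did not overlap, and the ratio was not tested.

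Prdm1 (ENSMUSG00000038151, chromosome 10, 44437177 to 44528501, minus strand) encodes Blimp1, a repressor that acts in plasma cells and T cells and in epithelia such as the epidermis. It had 49.3, 36.9 and 39.2 CPM in the non-tuft-like and 2.56, 6.02 and 3.23 CPM in the tuft-like libraries. The tuft-like mean was 9.42% of the non-tuft-like mean, with a log2 fold change of -3.40 (95% interval -4.47 to -2.34, edgeR FDR 0.00427). In tuft-like mTEC its reads per kb were below the background level defined above, in all libraries (0.167 to 0.535 times), so a remaining level was not told from background. Subtraction of background used a lower level, the mean of the olfactory receptor genes per kb. That mean was 2.54 to 15.2 reads per kb, against 45.0 to 85.3 at the 99th percentile. After subtraction, the log2 fold change was -4.19 and the edgeR FDR 0.117, which ended the call. Prdm1 is also expressed in keratinocytes of the skin. Of 7 keratinocyte genes all had a lower level in tuft-like mTEC, and 3 were called (Dmkn, Ivl and Spink5). Of all 32496 tested genes, 15928 had a log2 fold change below 0, and 0.951% were called lower. The summed level of the 7 keratinocyte genes was 3419 to 5467 CPM in the non-tuft-like and 145.9 to 1416 CPM in the tuft-like libraries. Their part in the difference of Prdm1 was not tested.

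Sirt1 (ENSMUSG00000020063, chromosome 10, 63319005 to 63381704, minus strand) is a deacetylase that is known to deacetylate Aire. It had 42.6, 39.4 and 31.4 CPM in the non-tuft-like and 15.4, 11.8 and 16.8 CPM in the tuft-like libraries. All tuft-like libraries were thus below all non-tuft-like libraries, but the log2 fold change of -1.37 (95% interval -2.16 to -0.57) did not pass the test (edgeR FDR 0.102). Of its 5331 exonic bases 65 overlap a gene on the other strand. Of 14 alternative settings 3 called it, namely DESeq2 (FDR 0.0107), a filter of at least 1 CPM in 3 libraries (edgeR FDR 0.0465) and subtraction of background reads (edgeR FDR 0.0475). Over all 14 its log2 fold change stayed between -1.52 and -1.24.

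Dnmt3l (ENSMUSG00000000730, chromosome 10, 78041947 to 78063622, plus strand) encodes a cofactor of the de novo DNA methyltransferases that has no catalytic activity of its own. It had 375, 527 and 185 reads in the non-tuft-like and 207, 150 and 0 reads in the tuft-like libraries. This was 11.8, 11.2 and 5.88 CPM against 8.55, 4.38 and 0 CPM. The 0 in tuft-like replicate 3 allows a level of up to 0.0653 CPM before TMM scaling. The populations overlapped, and the log2 fold change of -1.16 had a 95% interval from -4.28 to 1.96 (edgeR FDR 1). It was -0.62 without tuft-like replicate 3 and -2.13 without tuft-like replicate 1, and -3.82 under limma voom (adjusted p = 0.423). Its reads per kb were 0 to 2.28 times the background level, and tuft-like replicate 3 had the fewest reads on olfactory receptor genes (2.54 per kb on average, against 5.71 to 15.2 in the other libraries). The part of background in the level of Dnmt3l was not tested.

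Hipk2 (ENSMUSG00000061436, chromosome 6, 38694390 to 38876165, minus strand), a nuclear kinase that binds and phosphorylates Aire, had 42.3, 32.2 and 52.9 CPM in the non-tuft-like libraries. The tuft-like libraries lay within that range, at 37.0, 42.9 and 43.5 CPM. The log2 fold change was -0.05 (95% interval -0.73 to 0.64, edgeR FDR 1). Its sign differed between settings (0.02 under limma voom).

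Chd4 (ENSMUSG00000063870, chromosome 6, 125095981 to 125130591, plus strand), the remodelling ATPase of the NuRD complex, had 133.2, 112.1 and 91.3 CPM in the non-tuft-like libraries and 90.7, 94.9 and 182.0 CPM in the tuft-like ones. The populations overlapped, with a log2 fold change of 0.13 (95% interval -0.61 to 0.87, edgeR FDR 1). Jmjd6 (ENSMUSG00000056962, chromosome 11, 116837432 to 116843449, minus strand), a dioxygenase known to be needed for correct splicing of Aire transcripts, had 62.0, 62.8 and 45.9 CPM in the non-tuft-like libraries and 59.4, 66.7 and 136.8 CPM in the tuft-like ones, which overlapped. Its log2 fold change was 0.62 (95% interval -0.17 to 1.42, edgeR FDR 0.842), and 7.34% of its exonic bases overlap other genes. For both genes the highest level was that of tuft-like replicate 3. Without this library the log2 fold change was -0.31 for Chd4 and 0.11 for Jmjd6, and without non-tuft-like replicate 3 it was -0.04 for Chd4.

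**Figure D2:**
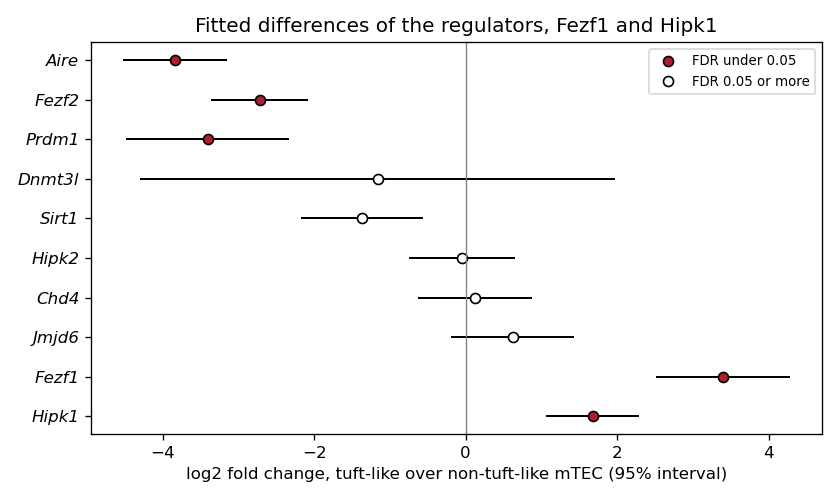
Log2 fold change (tuft-like over non-tuft-like mTEC) of the 8 regulators and of Fezf1 and Hipk1, with 95% intervals from edgeR's quasi-likelihood fit. Filled points passed an FDR of 0.05, which were Aire, Fezf2 and Prdm1 on the lower side and Fezf1 and Hipk1 on the higher side.

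Ordered by level per kb, the regulators changed places between the populations. In non-tuft-like mTEC Aire and Fezf2 came first and overlapped with each other, but their lowest library was above every library of Chd4 (14.0 ± 2.62 CPM per kb) and Jmjd6 (12.1 ± 2.03 CPM per kb), which overlapped in turn. Both overlapped no library of Prdm1, and Prdm1, Sirt1, Hipk2 and Dnmt3l followed between 7.49 and 3.23 CPM per kb on average, each overlapping the next. In tuft-like mTEC Jmjd6 (18.7 ± 9.09 CPM per kb) and Chd4 (15.3 ± 6.43 CPM per kb) came first, followed by Fezf2 and then Aire. Jmjd6, Chd4 and Fezf2 overlapped in this order, as did Aire and Hipk2 (4.66 ± 0.405 CPM per kb). Prdm1 came last, at 0.706 ± 0.329 CPM per kb, and overlapped Dnmt3l.

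Among 17 relatives of the regulators, 2 were called, both higher in tuft-like mTEC, which was so for 1.16% of all tested genes. Fezf1 (ENSMUSG00000029697, chromosome 6, 23245044 to 23248362, minus strand), a zinc finger factor close to Fezf2, had 7.07, 3.94 and 5.18 CPM in the non-tuft-like and 45.5, 61.4 and 63.4 CPM in the tuft-like libraries. The populations did not overlap, and its log2 fold change of 3.40 (95% interval 2.53 to 4.27, edgeR FDR 0.00148) ran opposite to that of Fezf2. Per kb its reads were 0.793 to 1.69 times the background level in non-tuft-like mTEC and 6.86 to 21.2 times in tuft-like mTEC. Each of the 14 alternative settings called both genes in these directions. Of the summed level of both genes per kb, Fezf1 made up 2.92% ± 1.09 in non-tuft-like mTEC and 67.1% ± 3.57 in the tuft-like population, with no overlap. That sum was 78.1 ± 5.99 CPM per kb in non-tuft-like mTEC and 35.1 ± 5.72 CPM per kb where Fezf1 was the higher of the pair. Annotated transcripts of Fezf1 and Fezf2 share no stretch of 50 bases with any other gene, and the exons of both overlap no other gene.

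Hipk1, a nuclear kinase related to Hipk2, had 65.8, 76.6 and 79.8 CPM in the non-tuft-like and 199.7, 242.0 and 269.3 CPM in the tuft-like libraries. It rose by a log2 fold change of 1.68 (95% interval 1.08 to 2.27, edgeR FDR 0.00919). The call was lost without non-tuft-like replicate 1, non-tuft-like replicate 2 or tuft-like replicate 2 (edgeR FDR 0.0549 to 0.082). Per kb, Hipk1 made up 55.0% to 65.8% of the sum of Hipk1 and Hipk2 in the non-tuft-like and 81.4% to 83.4% in the tuft-like libraries. Of its 10914 exonic bases, 729 overlap a gene on the other strand. The other sirtuins, the DNA methyltransferases Dnmt1, Dnmt3a and Dnmt3b, Hipk3, Hipk4 and 4 proteins that share the SAND domain with Aire (Deaf1, Sp100, Sp110, Sp140) were not called. Their log2 fold changes lay between -0.58 and 0.92. Sirt7, which with Hipk1 had the highest CPM of these relatives averaged over all 6 libraries, though not within non-tuft-like mTEC alone, averaged 102.2 and 167.6 CPM and did not pass the test either (log2 fold change 0.71, edgeR FDR 0.413). Of the 17 relatives, 5 were higher without overlap (Fezf1, Hipk1, Sirt7, Sirt5 and Dnmt3a) and 0 were lower. Over all tested genes these shares were 7.18% and 8.85%.

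**Figure D3:**
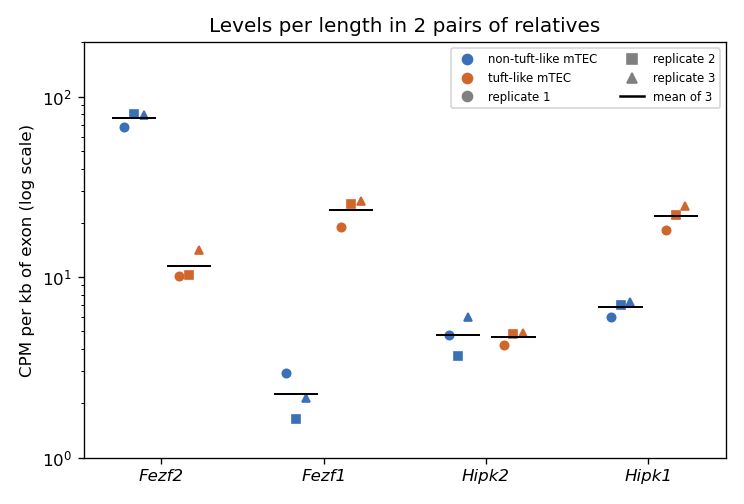
Levels of Fezf2, Fezf1, Hipk2 and Hipk1 in each library, as CPM per kb of exon on a log axis, with a line at the mean of the 3 libraries of a population. Fezf2 and Fezf1 exchanged order between the populations, whereas Hipk1 rose and Hipk2 overlapped.

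Around Aire, 4 other genes are annotated within 50 kb. Dnmt3l runs in the opposite direction and starts inside Aire. The genes share 1664 bp, but only 67 exonic bases (chromosome 10, 78042061 to 78042127), which are 1.75% of the exonic bases of Aire and 2.24% of those of Dnmt3l. Whether strand was used in counting is not given in the sources used here, and reads from these 67 bases could not be told apart if strand was not used. Icosl, the ligand of the costimulatory receptor ICOS, lies 25692 bp from Aire, beyond Dnmt3l. It had 152.0, 150.4 and 118.5 CPM in the non-tuft-like and 16.7, 19.2 and 10.2 CPM in the tuft-like libraries. It fell by 3.19 on the log2 scale (edgeR FDR 0.000898), without overlap. Pfkl, a glycolytic enzyme on the other side of Aire, overlapped between the populations (log2 fold change 0.31, 95% interval -0.32 to 0.94, edgeR FDR 1). The same was so of 1810043G02Rik (log2 fold change -0.09, edgeR FDR 1).

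**Figure D4:**
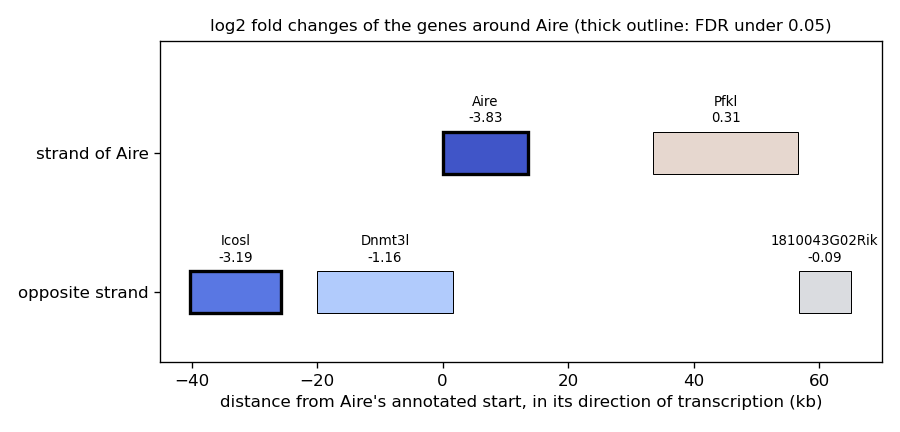
The 5 genes within 50 kb of Aire, drawn to scale by distance in kb from the annotated start of Aire, with the log2 fold change (tuft-like over non-tuft-like mTEC) as number and colour. Aire (-3.83) and Icosl (-3.19) passed an FDR of 0.05, and Dnmt3l, which overlaps Aire on the side of Icosl, did not.

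The wider machinery was described with lists drawn from general knowledge. Of 24 further genes known to act with Aire, among them the kinase Prkdc, the topoisomerases Top1, Top2a and Top2b, and the elongation factor subunits Cdk9 and Ccnt1, edgeR's quasi-likelihood test called 0. At an unadjusted p under 0.05 there were 3 (8.97% of all tested genes). DESeq2 called 2, Atf7ip and Ddx17, both upwards, and limma voom 0, and Ddx17 was also called with library size only and after subtraction of background. The median difference was 0.04 on the log2 scale, and the range was -0.59 to 1.08. The RNA helicase Ddx5 was the most abundant by CPM, at 1074 ± 139.5 CPM in non-tuft-like mTEC and 1123 ± 275.2 CPM in the tuft-like population. Smarca4, the ATPase of BAF complexes, had 318.8 ± 48.7 and 240.2 ± 16.1 CPM. Its difference of -0.41 on the log2 scale did not pass the test (edgeR FDR 0.983), although the libraries did not overlap.

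Of 13 subunits of the NuRD complex other than Chd4, the same test called 0, with 1 at an unadjusted p under 0.05, and DESeq2 and limma voom called 0. Their median log2 fold change was -0.21, within a range of -0.50 to 0.89. The histone-binding subunits Rbbp7 (log2 fold change -0.40, edgeR FDR 1) and Rbbp4 (0.26, edgeR FDR 1) had the highest CPM averaged over all 6 libraries, although Mta2 (295.6 CPM) was above Rbbp4 (264.1 CPM) in tuft-like mTEC. No gene of these 2 lists had a log2 fold change above 1.08 in size.

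Of 15 factors placed upstream of Aire or of mTEC maturation, 3 were called, 2 lower and 1 higher in tuft-like mTEC. Over all tested genes, 0.951% were called lower and 1.16% higher. Irf8, an interferon regulatory factor, had 137.2, 168.6 and 148.7 CPM in the non-tuft-like and 44.1, 55.6 and 73.2 CPM in the tuft-like libraries. It fell by 1.39 on the log2 scale (edgeR FDR 0.0334). Its relative Irf4 had 39.9, 30.1 and 16.9 CPM against 3.55, 2.05 and 0.331 CPM (log2 fold change -3.88, edgeR FDR 0.042). The ETS factor Spib, known to restrain mTEC maturation, averaged 214.2 ± 15.8 CPM in non-tuft-like mTEC and 808.6 ± 231.1 CPM in the tuft-like population, and rose by 1.92 on the log2 scale (edgeR FDR 0.0128). These calls did not hold in every setting. Irf8 lost its call when any library other than tuft-like replicate 3 was left out (edgeR FDR 0.0637 to 0.207). Irf4 and Spib lost theirs without non-tuft-like replicate 1, non-tuft-like replicate 2 or tuft-like replicate 2 (edgeR FDR 0.104 to 0.143 for Irf4 and 0.0662 to 0.112 for Spib). Irf4 also lost its call with RLE factors, library size only, limma voom and the filter of at least 1 CPM in 3 libraries (adjusted p = 0.051 to 0.0783), and Irf8 and Spib with the replicate block (edgeR FDR 0.0547 and 0.0793). In tuft-like mTEC Irf4 was below the background level in all 3 libraries. Relb, the NF-κB subunit needed for mTEC development, had 137.6 to 164.8 CPM in non-tuft-like mTEC and 31.9 to 98.9 CPM in the tuft-like population (log2 fold change -1.39, edgeR FDR 0.149) and was called in 5 settings besides those that left out a library, DESeq2 and limma voom among them. Nfkb2, its partner, had 235.0, 183.0 and 160.8 CPM against 80.8, 85.6 and 166.0 CPM (log2 fold change -0.80, edgeR FDR 0.498). The other NF-κB subunits Nfkb1 (-0.07), Rela (-0.01) and Rel were within 0.1 of 0 on the log2 scale. The median of the list was -0.26.

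**Figure D5:**
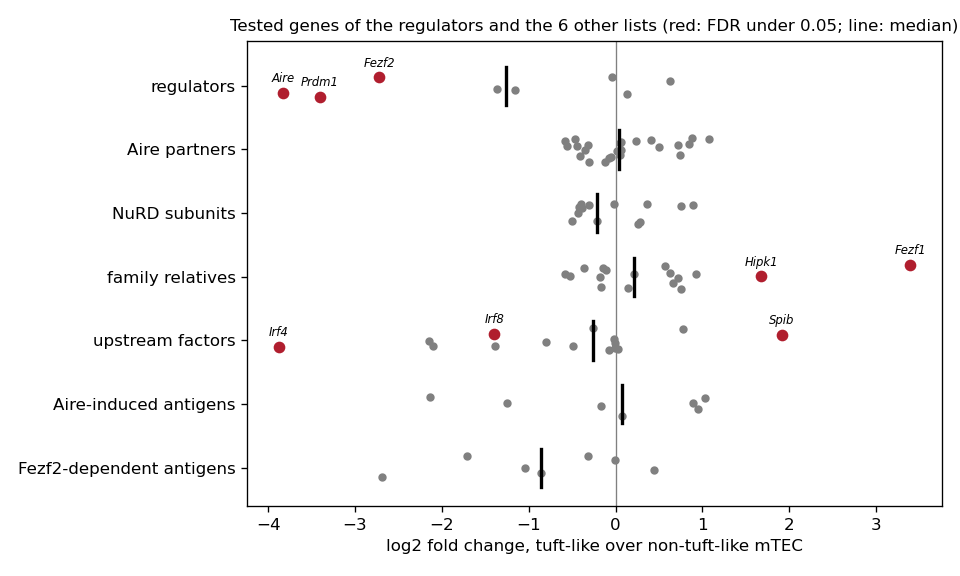
Log2 fold change (tuft-like over non-tuft-like mTEC) of every tested gene of the 8 regulators and of the 6 other lists, with a line at the median of each list. Red, named points passed an FDR of 0.05, and the partner and NuRD lists, with 24 and 13 genes, hold none.

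Peripheral antigen genes that are commonly used as readouts of Aire or Fezf2 were described next, and none was called, although Maoa of the list for Fezf2 was called without tuft-like replicate 3. Of 8 antigen genes known as induced by Aire 7 were tested, Mup1 did not pass the filter, and edgeR's quasi-likelihood test called 0, with 1 at an unadjusted p under 0.05. DESeq2 called S100a8 and limma voom none. The median difference of the 7 was 0.08 on the log2 scale, which was the value of Rbp3 (95% interval -5.21 to 5.36). Rbp3 had at most 49 reads and was below the background level in every library, so this median settles no direction. Of the 7, 3 had a log2 fold change below 0. S100a8 and Fabp9 were lower without overlap, and 0 were higher (8.85% and 7.18% of all tested genes). Fabp9 did not pass the test (log2 fold change -1.25, edgeR FDR 0.953), and 53% of its exonic bases overlap another gene. S100a8 had 33.6, 14.4 and 28.7 CPM in the non-tuft-like and 2.40, 12.7 and 2.24 CPM in the tuft-like libraries, without overlap (log2 fold change -2.14, 95% interval -3.82 to -0.46, edgeR FDR 0.299). Tff3, a trefoil factor, had 46.4, 27.4 and 9.03 against 84.5, 37.9 and 37.8 CPM (log2 fold change 0.95, 95% interval -0.29 to 2.19, edgeR FDR 0.859). Ins2, which encodes insulin, was at or under 5.35 CPM in every library (log2 fold change -0.17, edgeR FDR 1), a level at which the interval from -2.78 to 2.44 leaves the direction undetermined.

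Of 7 antigen genes taken as dependent on Fezf2, 6 had a fitted level below that of non-tuft-like mTEC, as did 15928 of all 32496 tested genes. The median of the 7 was -0.86 on the log2 scale, and edgeR's quasi-likelihood test called 0, with 1 at an unadjusted p under 0.05. DESeq2 called Pld1 (log2 fold change -0.86 and FDR 0.252 in edgeR), and limma voom called none. Pld1 and Maoa were lower without overlap, and 0 were higher (8.85% and 7.18% of all tested genes). Maoa had the lowest log2 fold change of the list (-2.69, edgeR FDR 0.598), with 0 reads in tuft-like replicate 3. Krt10, an epidermal keratin also counted among the keratinocyte genes, had 92.9, 759.7 and 943.9 CPM in the non-tuft-like and 21.3, 113.6 and 412.1 CPM in the tuft-like libraries, which overlapped (log2 fold change -1.72, edgeR FDR 0.811). Resp18, a neuroendocrine granule protein, was equally abundant within its spread, at 263.5 ± 85.4 and 262.6 ± 127.8 CPM. The exact set of antigens that depends on each regulator was not measured here.

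The genes nearest to Aire in their pattern over the 6 libraries, by the distance of log2 levels centred on each gene's mean, were Foxn1, Mill1, Phgdh, Aldh3b3 and Them5, among 14044 genes that averaged 5 CPM or more. Foxn1, the transcription factor that sets thymic epithelial identity, was at a distance of 0.54, and had 165.4, 146.1 and 142.3 CPM in the non-tuft-like and 11.1, 17.2 and 12.3 CPM in the tuft-like libraries. It fell by 3.48 on the log2 scale (edgeR FDR 0.00043), without overlap. Among the other regulators Prdm1 was nearest to Aire (0.87), followed by Fezf2 (1.52) and Sirt1 (3.06). Nearest to Fezf2 were Mpzl2 (0.24), Ndrg2 (0.28), Cd52, Zfp36l1 and Crct1, each with a log2 fold change between -2.94 and -2.56. By its construction the distance is small for genes whose difference between the populations is of like size.

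Markers of other cells were set beside these values. Of 6 mature mTEC genes 5 had a lower level in tuft-like mTEC and Cd40, Ciita, Cd74 and H2-Ab1 were called. Of all 32496 tested genes, 15928 had a log2 fold change below 0, and 0.951% were called lower. The summed level of the 6 mature mTEC genes was 12440 to 15500 CPM in the non-tuft-like and 1951 to 4260 CPM in the tuft-like libraries, although both populations were sorted as MHCIIlo. Cd80, absent from both populations by the sort, had 9.12 to 18.9 CPM in non-tuft-like mTEC and 0.138 to 3.92 CPM in the tuft-like population (edgeR FDR 0.557). The part of more mature cells in the difference of Aire was not tested. B cells of the thymus can also express Aire. Of the B cell genes, Cd79b had 8.58, 11.4 and 5.28 CPM in non-tuft-like mTEC and 47.9, 83.5 and 101.5 CPM in the tuft-like population, and rose by 3.20 on the log2 scale (edgeR FDR 0.00317). Its partner Cd79a stayed at or under 1.61 CPM in every library and had 0 reads in tuft-like replicate 3. The 7 thymocyte genes summed to between 6.24 and 29.3 CPM and the 6 macrophage and dendritic cell genes to between 123.5 and 321.8 CPM, overlapping between the populations. Lyz2 made up most of the latter sum, at 112.6 to 301.5 CPM. The 5 fibroblast genes summed to 7.92 to 25.9 CPM in non-tuft-like mTEC and 8.62 to 63.9 CPM in the tuft-like population, with overlap. Endothelial genes summed to 33.0 to 58.8 CPM against 165.2 to 327.8 CPM. Tek, the gene that was called, had 11.4 to 36.7 CPM in non-tuft-like mTEC and 141.8 to 225.0 CPM in the tuft-like population, whereas Kdr, Cdh5 and Pecam1 overlapped, and Kdr and Pecam1 were lowest in tuft-like replicate 3 (0.221 and 3.07 CPM). The part of these cells in the differences was not tested.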

How the data were processed

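RNA of mTEC, 3 libraries for each population, was processed with an ultra-low input kit. The authors used Trimmomatic 0.36 for trimming, STAR 2.7.3a for alignment (mm10) and HTSeq in its intersection-nonempty mode for counting, and deposited raw counts per gene. Annotation release and strand setting are not given in the sources used here. The table also held 92 ERCC rows, all at 0, and 5 HTSeq summary rows (27.1% to 66.6% of all reads per library), which were left out of library sizes and tests. GENCODE M21 named 99.56% of the 52636 gene rows, and gave exon lengths and coordinates.

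Groups were taken from the labels. Genes were kept with filterByExpr (minimum count 10, minimum total 15), scaled by TMM and tested with edgeR 4.0.16 (quasi-likelihood F-test, Benjamini-Hochberg adjustment over all tested genes) in R 4.3.3. Standard errors were derived from F, and 95% intervals used the total degrees of freedom of the fit. The procedure was tested on simulated data. Alternatives used RLE factors, library size only, DESeq2 1.42.0, limma 3.58.1 (voom), 2 other filters, a replicate block, subtraction of background and each library left out in turn. Background was estimated per exon kb from 1134 olfactory receptor genes. A count of 0 allows 3 counts (0.0620 to 0.149 CPM before TMM scaling), which covers counting error only.

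Replicate numbers were checked for pairing. Deviations from the group means correlated at -0.117, -0.0462 and -0.290 within numbers, so they were not used as pairs. Named were the 8 regulators, list genes that were called, the 2 genes of each list with the highest mean CPM, genes within 50 kb of Aire, and the 5 genes nearest in pattern to Aire and to Fezf2. Members and lists were chosen with earlier results of these data known. Other genes of the lists were named after their values were seen. Spt1 and Supt16h were matched as Mucl2 and Supt16 through RefSeq synonyms.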

Additional observations from a re-analysis of the deposited data

How the results depend on the processing

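Aire and Fezf2 were called lower and Fezf1 higher in all 14 alternative settings, with log2 fold changes of -3.99 to -3.72, -2.93 to -2.63 and 3.21 to 3.63. Of the 8 regulators 3 or 4 were called in every setting. Prdm1 was called in 13 of 14 and Sirt1 in 3. The number of differing genes, 687, was 1045 with library size only, 1904 with DESeq2, 1127 without a filter on low counts and 1055 after subtraction of background, and between 376 and 922 with each library left out. The fewest were called without tuft-like replicate 2 (376) or non-tuft-like replicate 2 (379). Of the 6 other lists, 5 genes were called in the main comparison, 10 with DESeq2 and 3 with the replicate block. The shares of all tested genes were 2.11%, 10.2% and 2.27%. With each library left out, 1 to 7 genes of these lists were called, against 1.03% to 2.45% of all tested genes. Fezf1 alone was called in 3 of these fits (without non-tuft-like replicate 1, non-tuft-like replicate 2 or tuft-like replicate 2). Hipk2 changed sign under limma voom (0.0174) and with libraries left out (-0.21 to 0.12), and Chd4 with libraries left out (-0.31 to 0.31). The cause was not tested. The replicate block left 737 genes called, ended the calls of Spib (edgeR FDR 0.0793) and Irf8 (edgeR FDR 0.0547) and changed no call of the 8 regulators, Fezf1, Hipk1, Irf4 or Icosl. The replicate numbers are only shared numbers. Under limma voom the median of all genes tested in every setting was shifted by -0.17. Dnmt3l had at most 527 reads in a library and Ins2 at most 183, and the 95% intervals of both included 0. The part of depth in their width was not tested.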
